A study of Cyanidioschyzon merolae strain 10D with 3 samples.

Results

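Free-standing Z loci are annotated loci of the red alga *Cyanidioschyzon merolae* whose identifier ends in the letter Z and whose interval has no base in common with any other locus on its chromosome. They number 295 of the 797 loci ending in Z and of the 6823 loci listed in all. Of the 502 Z loci left out, 396 share bases with a locus ending in C. At the edge of the rule, CMO368Z, CMR013Z and CMQ346Z lay 4, 7 and 8 bp from their nearest neighbour and were kept, whereas CMC193Z, CMN339Z and CML039Z share 9, 10 and 14 bp with another locus and were left out. The sources used here do not say what the letter Z stands for. None of the 797 Z loci has an entry in the RefSeq gene table used here, although all 5373 locus tags of that table matched a listed locus, so no name or role is given to any of them. They were set against the 4106 free-standing loci ending in C. All 3989 of these that lie on nuclear chromosomes are protein-coding genes in RefSeq, and the other 117 lie on the organelle genomes.

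The samples were 3 libraries, labelled biological replicates 1, 2 and 3, of strain 10D grown in liquid culture. Cells were grown at 42°C, shaken at 150 rpm under continuous light of 70 µmol, and collected in late log phase. Polyadenylated RNA was sequenced as paired-end reads. There is 1 condition, with no treated or mutant group, so every comparison is between classes of loci within a library.

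*C. merolae* is a unicellular red alga of hot acidic springs with a small nuclear genome in which genes are densely packed and nearly all lack introns. Selection by the poly(A) tail favours messenger RNA and other transcripts that carry such a tail, and transcripts without one are under-represented. The regions beside telomeres often hold repeated sequences and gene families in eukaryotes, and chromatin there is often repressed.

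The values are FPKM as deposited, that is, fragments scaled by a length and by the library's mapped fragments. The number of fragments behind each value was read from its confidence limits and summed over free-standing loci to 1.30e+07, 2.88e+06 and 2.98e+06 in libraries 1, 2 and 3. By these numbers the length used was not the full locus length. In library 2, 1 fragment was worth 5.09 FPKM at CMA026Z (212 bp) and 0.164 FPKM at CMJ006Z (1264 bp), a wider difference than their lengths give. FPKM of short loci are therefore not plain levels per kilobase. The difference between libraries 2 and 3 was smaller than sampling noise gives: over the 234 Z loci with more than 20 fragments in every library, the mean squared difference was 0.241 of that expected from counting alone, against 13.3 and 13.1 for library 1 with library 2 and with library 3. Libraries 2 and 3 were therefore averaged and counted as 1 sample, which gives n = 2 for each mean and SD. Across the 295 Z loci, Pearson's r of log2(FPKM + 1) was 0.904, 0.941 and 0.954 for libraries 1 and 2, 1 and 3, and 2 and 3. For the 280 Z loci of at least 300 bp it was 0.986, 0.988 and 0.996. These coefficients describe loci that share libraries and are not replicates. The labels do not say whether the replicates were separate cultures, and the p-values given here concern only these samples. They take their smallest possible value whenever all samples differ in the same direction, so they do not measure the spread between samples.

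Z loci were listed at lower levels than C loci in every library. The median Z locus had 39.2, 39.3 and 39.2 FPKM in libraries 1, 2 and 3, and the median C locus had 60.6, 63.9 and 64.3 FPKM. For the 2 samples, libraries 2 and 3 were averaged at each locus before the median was taken. The means of the 2 sample medians were 39.1 ± 0.162 FPKM for Z loci and 62.4 ± 2.47 FPKM for C loci (SD, n = 2). The ranges of the library medians did not overlap. As log2(FPKM + 1), the Z median minus the C median was −0.62, −0.69 and −0.70 in the 3 libraries, with a mean of −0.66 and an SD of 0.062 between the 2 samples. An exact two-sided sign-flip permutation test gave p = 0.5, the smallest value that 2 samples allow, and p = 0.25, again the smallest, with the 3 libraries as 3 samples. The difference was larger than the spread between libraries, but the design cannot carry it past a threshold. With means over loci in place of medians it was −1.11. In RNA from whole cultures, transcripts present in fewer cells and transcripts present at fewer copies per cell cannot be told apart.

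A part of the Z loci reached ordinary C levels. In library 1, 96 of the 295 Z loci were above the median C locus, and 103 and 102 were in libraries 2 and 3. As ratios, the classes differed most in their lower part. On the mean FPKM of the 2 samples, the 10th percentile was 0.981 FPKM for Z loci and 19.7 FPKM for C loci. At the median the values were 40.3 and 62.8 FPKM, and at the 90th percentile 140 and 250 FPKM, so that in FPKM itself the distance was widest at the top. In all, 30 Z loci (10.2%) were under 1 FPKM, against 107 C loci (2.61%) and 7.89% of all 4955 free-standing loci. Of those 107 C loci, 31 lie on the organelle genomes, where no free-standing Z locus lies. Among nuclear C loci 76 (1.91%) were under 1 FPKM. Over 100 FPKM were 55 Z loci (18.6%) and 1217 C loci (29.6%). The plot of cumulative FPKM by library shows this long lower tail in each library.

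**Figure D1:**
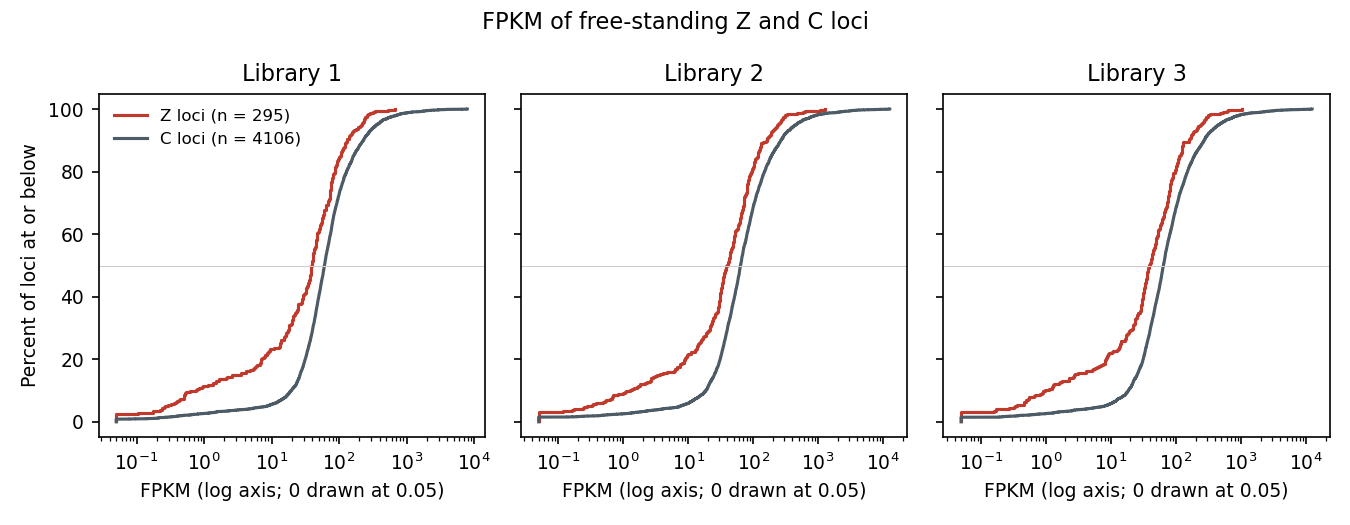
Percent of free-standing loci at or below each FPKM (log axis, listed zeros drawn at 0.05) in libraries 1, 2 and 3, with 295 Z loci in red and 4106 C loci in grey. In each library the Z curve lies left of the C curve, most widely on this log axis at the low end, where the 10th percentiles of the mean FPKM are 0.981 for Z loci and 19.7 for C loci.

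Free-standing loci ending in T, listed by RefSeq as RNA genes of no stated type, were the class set beside the Z loci as the most alike. The 195 T loci had medians of 55.9, 51.3 and 53.2 FPKM, between those of Z and C loci, and 1 of them was not detected. The median length was 1184 bp for Z loci and 1765 bp for T loci.

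A locus was taken as detected where its confidence limits implied more than 3 fragments, the number that a count of 0 allows. By this measure 281, 266 and 265 Z loci were detected in libraries 1, 2 and 3, or 95.3%, 90.2% and 89.8%. For C loci the shares were 98.3%, 97.4% and 97.3%, and for all free-standing loci 96.2%, 93.5% and 93.6%. In every library at once, 263 Z loci (89.2%) were detected, against 97.2% of C loci and 93.1% of all free-standing loci. The Z share was thus below both in every library. A locus that was not detected may still be transcribed at a level under this depth, and such limits cover counting error only.

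Of the 32 Z loci that were not detected in every library, 13 (40.6%) were under 600 bp long, against 46 of all 295 Z loci (15.6%), and 11 lay within 20 kb of a chromosome end. A mean under 1 FPKM was found at 26 of the 32, which the limit on fragments fixes in large part. A total of 14 Z loci were listed at 0 in at least 1 library. CMN052Z, 872 bp on chromosome 14 from 123998 to 124869, and CMM303Z, 296 bp on chromosome 13 from 766114 to 766409, were the 2 listed at 0 in all 3. They are named for that, after their values were seen. CMN052Z lies between the C loci CMN051C and CMN053C, and CMM303Z lies between loci ending in X.

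Together the Z loci held 3.04% of the fragments of free-standing loci in library 1 (95% Wilson interval 3.03% to 3.05%), 2.97% in library 2 (2.95% to 2.99%) and 2.96% in library 3 (2.94% to 2.98%). These intervals cover counting error only, since PCR copies are not independent molecules. The median Z locus rested on 895, 194 and 206 fragments in the 3 libraries, and the median C locus on 1620, 354 and 371. The 10 Z loci with the most fragments held 18.9%, 19.4% and 19.4% of all Z fragments, so that no small set of loci made up the class total.

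Among Z loci detected in every library, the 10 with the highest mean reached from 250 to 633 FPKM. CMD089Z, with a mean of 315 FPKM from 3 fragments in 1 library, was left out of them because it was not detected in every library. CMR043Z, 753 bp on chromosome 18 from 120265 to 121017, was listed at 670, 589 and 601 FPKM (633 ± 53.1, SD, n = 2) in libraries 1, 2 and 3. Its nearest neighbour, CMR044C, lies 448 bp away and had 54.4, 62.0 and 62.3 FPKM, below CMR043Z in every library. CMQ027Z, 1459 bp on chromosome 17 from 62605 to 64063, was listed at 535, 632 and 633 FPKM (584 ± 68.9). It stands alone, 2156 bp from CMQ028C, which had 44.3, 48.5 and 46.5 FPKM. Both loci rested on over 1000 fragments in each library, 7709, 1492 and 1576 for CMR043Z and 17081, 4503 and 4613 for CMQ027Z.

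CMT319Z, the locus that came next by its mean, is of another kind. It is 144 bp long, on chromosome 20 from 809720 to 809863, and was listed at 41.1, 1066 and 1024 FPKM (543 ± 710). These values came from 4, 20 and 20 fragments, so that 1 fragment was worth 10.3 FPKM in library 1, 53.3 FPKM in library 2 and 51.2 FPKM in library 3. Its rank among the 10 highest thus rests on libraries 2 and 3, and the SD is larger than the mean.

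The others varied less between the 3 libraries than CMT319Z did, although library 1 was clearly the lowest at CMT335Z, CMT642Z and CMQ446Z. CMT335Z, 587 bp on chromosome 20 from 845823 to 846409, had 345, 467 and 478 FPKM. CMJ106Z, 1584 bp on chromosome 10 from 311927 to 313510, had 324, 285 and 294 FPKM, and its neighbour CMJ107C, 373 bp away, had 140, 146 and 139 FPKM. CMM337Z, 573 bp on chromosome 13 from 40082 to 40654, had 288, 308 and 316 FPKM. Library 1 was the lowest for CMT335Z and CMM337Z and the highest for CMJ106Z. CMT642Z, 865 bp on chromosome 20 from 716758 to 717622, had 242, 330 and 332 FPKM. CMP353Z, 1059 bp on chromosome 16 from 884717 to 885775, had 268, 275 and 279 FPKM and lies 18.7 kb from the chromosome end. The 3 values of CMP353Z were the closest together of the 10. CMR507Z, 849 bp on chromosome 18 from 181855 to 182703, had 238, 265 and 271 FPKM. CMQ446Z, 575 bp on chromosome 17 from 1158412 to 1158986, had 212, 286 and 288 FPKM, close to its neighbour CMQ445C, 334 bp away, with 220, 290 and 293 FPKM. Apart from CMT319Z, no library value of these loci fell below 212 FPKM, and neighbours in the order of means differed by less than the larger of their SD values except CMT335Z and CMJ106Z.

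**Figure D2:**
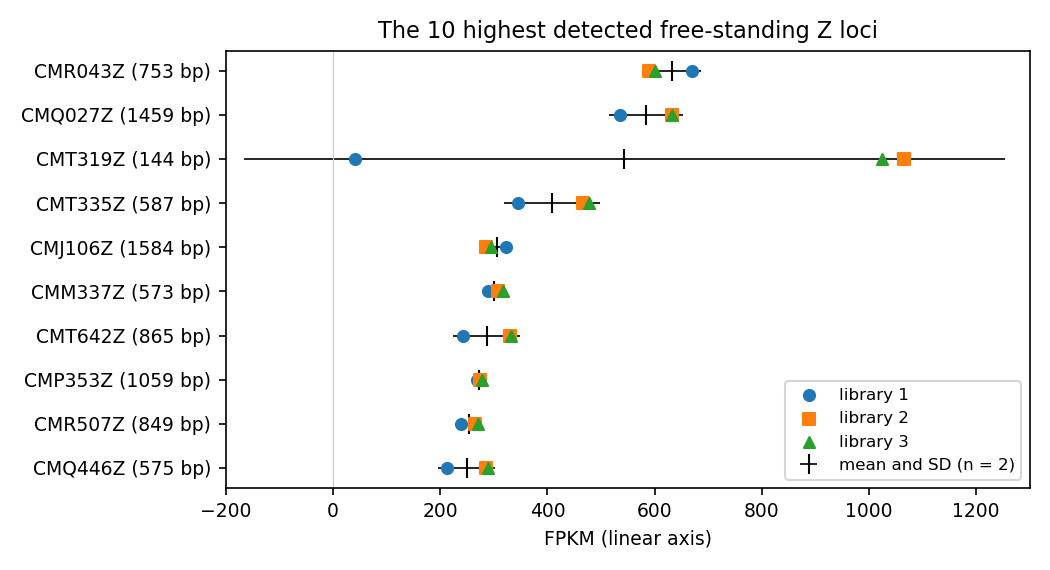
FPKM (linear axis) of the 10 free-standing Z loci with the highest mean among those detected in every library, with 1 marker per library and bars for the mean and SD of 2 samples. The libraries lie furthest apart at CMT319Z (144 bp), where library 1 gave 41.1 FPKM and libraries 2 and 3 gave 1066 and 1024 FPKM.

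Length did not separate Z from C loci at the median, but the divisibility of length did. Z loci were 114 to 4231 bp long with a median of 1184 bp and quartiles of 751 and 1547.5 bp, and C loci were 75 to 18060 bp long with a median of 1197 bp. The length was a multiple of 3 in 118 of 295 Z loci (40.0%), against 4092 of 4106 C loci (99.7%) and 30.3% of T loci. Protein-coding intervals that run from start to stop codon without an intron have lengths divisible by 3. Other intervals can have such a length by coincidence, as the T loci show, so divisibility alone does not mark a Z locus as coding. The 118 Z loci with such a length had medians of 39.0, 38.4 and 37.5 FPKM, and the other 177 had 39.2, 40.9 and 40.9 FPKM, so the split by divisibility came with no visible difference in level.

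The longest Z loci were of modest level. CML288Z, 4231 bp on chromosome 12 from 744009 to 748239, had 15.2, 13.8 and 14.3 FPKM. CMP025Z, 3621 bp on chromosome 16 from 63389 to 67009, had 45.2, 30.9 and 30.1 FPKM. CMC167Z, 3011 bp on chromosome 3 from 404026 to 407036, had 38.5, 21.9 and 22.3 FPKM. Each of the 3 rested on over 300 fragments in every library. The shortest did not give usable levels. CMD089Z, 114 bp on chromosome 4 from 213382 to 213495, was listed at 0, 1260 and 0 FPKM, the value in library 2 coming from 3 fragments. CMB090Z, 120 bp on chromosome 2 from 256112 to 256231, was listed at 0, 265 and 528 FPKM from 0, 1 and 2 fragments. The third was CMT319Z. CMI256Z, 217 bp on chromosome 9 from 682371 to 682587, was listed at 0, 7.37 and 0 FPKM from 1 fragment, so that its listed values, like those of CMD089Z and CMB090Z, differed by no more than a few fragments.

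Within classes of length, Z loci were below C loci throughout, and the gap was widest at short loci. At 300 to 600 bp the medians were 38.1, 45.0 and 45.9 FPKM for 31 Z loci and 85.5, 120 and 120 FPKM for 517 C loci. At 1000 to 2000 bp they were 41.2, 36.4 and 38.2 FPKM for 152 Z loci and 59.1, 60.2 and 60.2 FPKM for 1669 C loci. At 2000 bp or more they were 28.6, 29.7 and 30.1 FPKM for 25 Z loci and 46.3, 44.8 and 44.9 FPKM for 839 C loci. C loci had higher medians the shorter they were in libraries 2 and 3, whereas the medians of Z loci stayed between 28.6 and 64.1 FPKM apart from 7.81 FPKM at the 15 loci under 300 bp in library 1. Because the FPKM were not scaled by the full locus length, medians of different length classes are not directly comparable. The share detected in every library was 74.2% of Z loci and 93.2% of C loci at 300 to 600 bp, and 90.8% and 98.4% at 1000 to 2000 bp. All 25 Z loci of at least 2000 bp were detected.

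**Figure D3:**
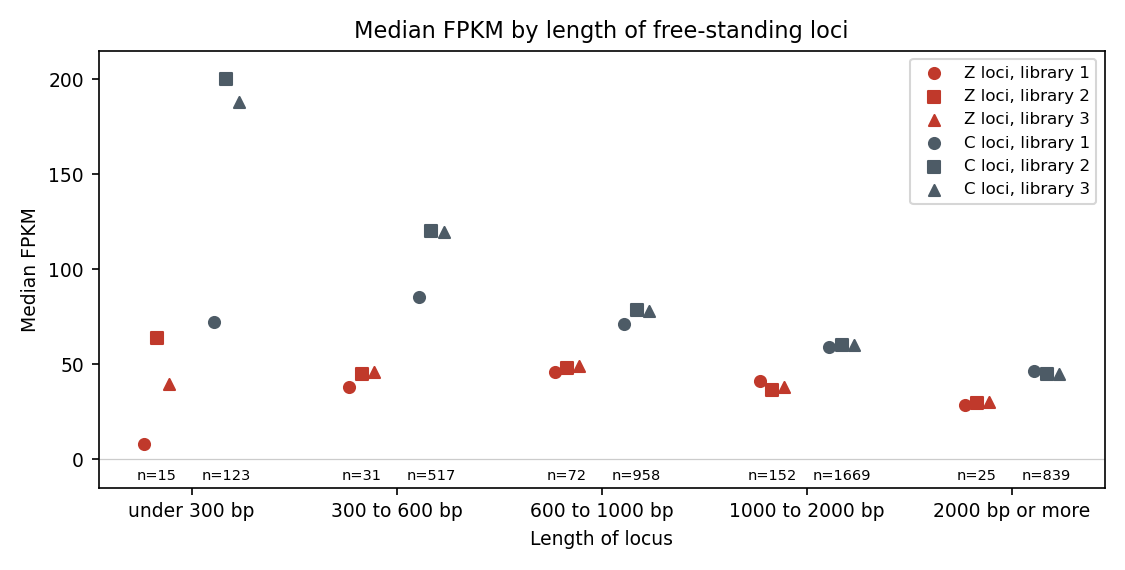
Median FPKM of free-standing loci in 5 classes of length, with Z loci in red left of C loci in grey and 1 marker per library; n gives the number of loci. Every Z median lies below the C median of the same library and class, by the most under 600 bp.

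Library 1 read short loci lower than libraries 2 and 3 did, in Z and C loci alike. At the 234 Z loci with more than 20 fragments in every library, 6 (2.56%) were higher in library 1 by more than 1.5 times and 12 (5.13%) were lower. The same was found at 2.49% and 7.06% of all free-standing loci, so the share of Z loci was near that of all loci in both directions. The median log2 ratio of library 1 to libraries 2 and 3 was −1.09 at 3 Z loci under 300 bp, −0.29 at 18 Z loci of 300 to 600 bp and 0.03 at 126 Z loci of 1000 to 2000 bp. For C loci it was −1.27, −0.47 and −0.01 in the same classes. The FPKM that 1 fragment was worth also changed with length by library. At CMR369Z (235 bp) it was 0.692, 5.02 and 4.91 in libraries 1, 2 and 3, and at CMJ006Z (1264 bp) 0.0348, 0.164 and 0.159. How much of the lower reading in library 1 comes from this scaling was not tested.

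The lowest ratios were at CMR369Z, CMQ263Z and CMT535Z, and only CMR369Z and CMQ263Z exceeded 2 times. CMR369Z, 235 bp on chromosome 18 from 889258 to 889492, had 47.0, 230 and 271 FPKM, a log2 ratio of −2.41. CMQ263Z, 285 bp on chromosome 17 from 680751 to 681035, had 40.2, 89.96 and 81.5 FPKM (−1.09), and CMT535Z, 868 bp on chromosome 20 from 1343547 to 1344414, had 17.6, 32.0 and 29.6 FPKM (−0.81). The highest ratios were at longer loci. CMG204Z, 1769 bp on chromosome 7 from 534235 to 536003, had 75.2, 38.1 and 42.1 FPKM, a log2 ratio of 0.91. That of CMC167Z, with the values given above, was 0.80. CMB169Z, 1184 bp on chromosome 2 from 274655 to 275838, had 16.6, 11.2 and 8.94 FPKM (0.72).

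**Figure D4:**
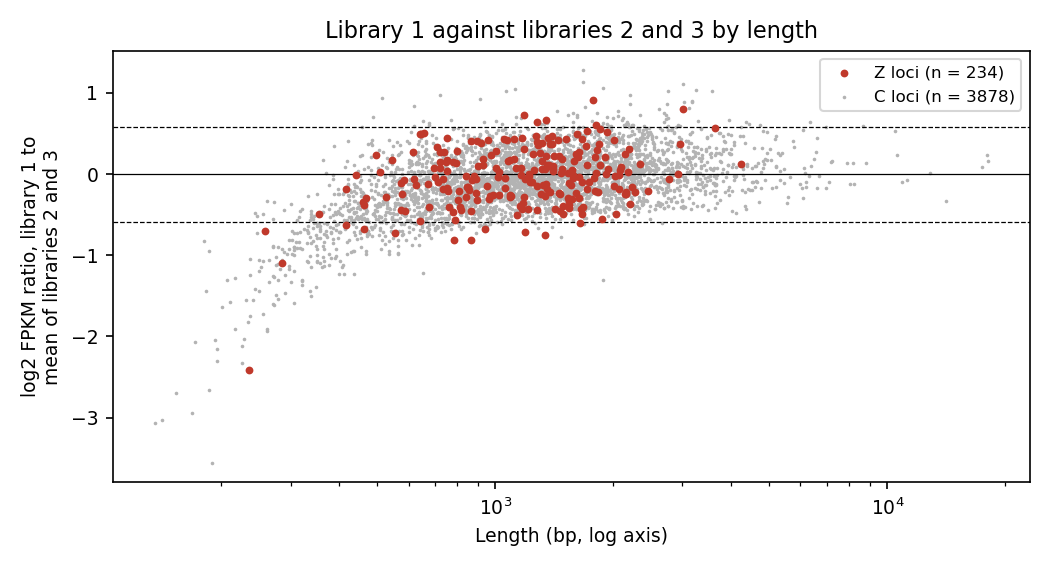
Log2 ratio of FPKM in library 1 to the mean of libraries 2 and 3 against length (log axis), at loci with more than 20 fragments in every library, with 234 Z loci in red over 3878 C loci in grey. Dashed lines mark 1.5 times. Both classes bend downward at short length, with a median of −1.09 for Z loci and −1.27 for C loci under 300 bp.

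Z loci were found on all 20 nuclear chromosomes and on neither organelle genome. Their number per 100 annotated loci ranged from 2.23 on chromosome 11 (7 loci) to 7.58 on chromosome 6 (15 loci). Nearly all sit among C loci. A C locus was the next locus on at least 1 side of 287 Z loci, and 217 had a C locus on both sides. Their surroundings were tighter than those of C loci, but not tighter than those of T loci. The median distance to the nearest locus was 299 bp for Z loci, 473 bp for C loci and 233 bp for T loci. Of Z loci 26.8% stood 500 bp or more from any other, against 47.7% of C loci and 20.5% of T loci. Distances under 100 bp were about as frequent, at 10.5% of Z loci, 11.96% of C loci and 13.3% of T loci. For nuclear C loci alone that share was 9.38%, the median distance was 491 bp, and 49.1% stood 500 bp or more away.

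The levels of Z loci and of their nearest loci were weakly correlated. For the 260 Z loci whose nearest locus was free-standing, of any class, Pearson's r of log2(FPKM + 1) was 0.27 and Spearman's rho was 0.19, against 0.14 and 0.18 for 3399 nuclear C loci. The order was the other way where that locus was a C locus. For the 222 Z loci whose nearest locus was a free-standing C locus, Pearson's r with that neighbour was 0.11 and Spearman's rho was 0.14. For 2626 nuclear C loci the same coefficients were 0.20 and 0.22. At distances under 100 bp Pearson's r was 0.07 for 21 Z loci and 0.33 for 196 C loci. The loci of a pair come from the same libraries, and the coefficients are descriptions. Medians were 42.0, 48.7 and 49.1 FPKM at the 31 Z loci less than 100 bp from another locus and 33.0, 33.7 and 31.7 FPKM at the 79 that stood 500 bp or more away.

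A larger share of Z loci was low near chromosome ends than in the interior, although 18 of the 30 under 1 FPKM were interior. A total of 26 Z loci (8.81%) on 14 chromosomes lay within 20 kb of an end, measured from position 1 or, on the other side, from where annotation stops, against 151 of 3989 nuclear C loci (3.79%). Their medians were 1.35, 1.16 and 0.945 FPKM, against 41.1, 43.1 and 42.3 FPKM at the 269 interior Z loci. The difference of log2(FPKM + 1) was −4.16, −4.37 and −4.48 in the 3 libraries, with a mean of −4.27 and an SD of 0.142 (n = 2, exact two-sided sign-flip permutation p = 0.5, the smallest possible). C loci near an end had medians of 62.4, 59.3 and 61.8 FPKM, against 61.4, 65.2 and 64.9 FPKM at interior nuclear C loci, a mean difference of −0.04 with an SD of 0.088 (exact p = 1). Most of the low values fell within 10 kb, where 17 Z loci had medians of 0.627, 0.674 and 0.533 FPKM. The 9 Z loci from 10 to 20 kb had medians of 51.3, 50.2 and 50.02 FPKM, but these are the values of 1 locus, CMA139Z. The 9 were widely spread. Among them CMJ006Z, CMC004Z, CMA141Z and CMA006Z had means of 0.168, 1.03, 1.36 and 1.94 FPKM. CMA139Z, CMR005Z, CML333Z, CMK005Z and CMP353Z had means from 50.7 to 272 FPKM. Without the loci near ends, the Z median minus the C median was −0.58 in place of −0.66.

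**Figure D5:**
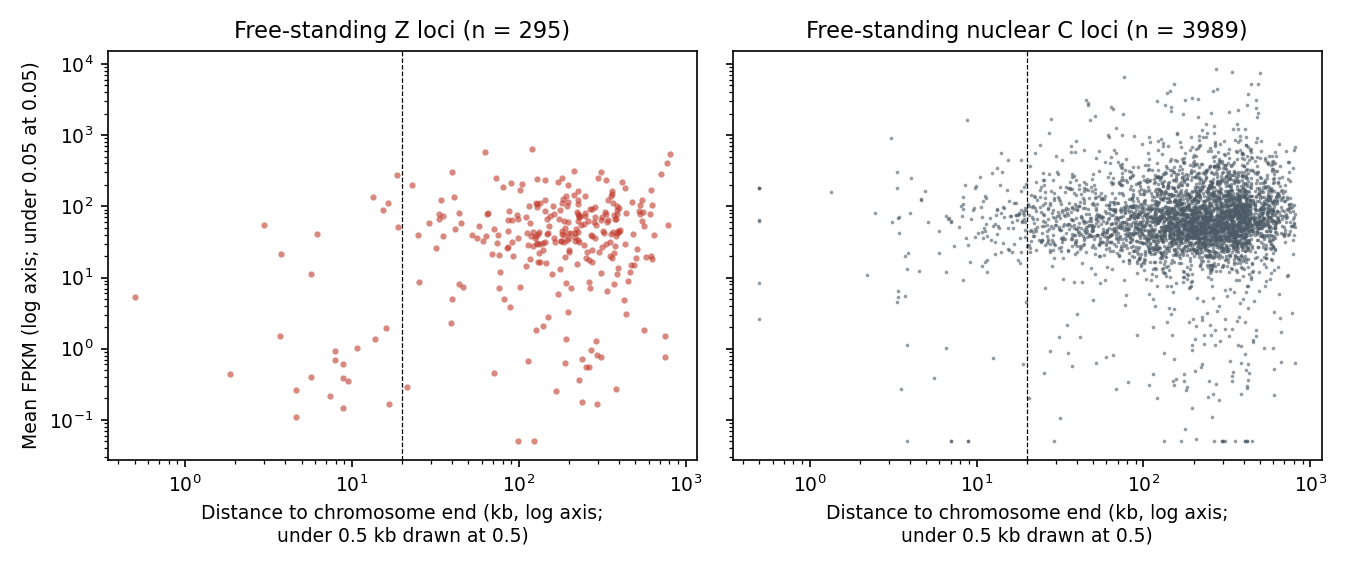
Mean FPKM (log axis) against the distance to the chromosome end (kb, log axis), with the 295 Z loci on the left and the 3989 nuclear C loci on the right; 1 point is 1 locus and the dashed line marks 20 kb. Left of the line 12 of 26 Z loci lie under 1 FPKM, against 9 of 151 C loci.

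Of the 26 Z loci near an end, 12 had a mean under 1 FPKM (46.2%), against 6.69% of interior Z loci and 5.96% of C loci near an end. Library by library it was 11, 13 and 14 of the 26, and 10 of the 151 C loci in each. Detected in libraries 1, 2 and 3 were 25, 17 and 15 of the 26 Z loci (96.2%, 65.4% and 57.7%). For the 151 C loci the shares were 96.7%, 94.7% and 94.7%, so the classes were alike in library 1 and differed in libraries 2 and 3. In every library at once, 15 of the 26 Z loci (57.7%) and 143 of the 151 C loci (94.7%) were detected. The 12 loci lie on 10 chromosomes, 1.87 to 16.8 kb from the end. Of the 12, 11 are between 1100 and 1400 bp long, against 7 of the other 14 Z loci near an end and 22.4% of all Z loci. Likewise 11 are next to a locus ending in X, the letter taken to mark repetitive elements, against 3 of the other 14. In all 11 the X locus is on the inner side, away from the chromosome end, as it is in 12 of all 14 Z loci near an end that have an X neighbour. From 7 to 10 kb from the end lie 7 of the 12 and 0 of the other 14. Both windows, of length and of distance, were set after these 12 loci were seen.

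The X loci beside them had medians of 0.414, 0.358 and 0.353 FPKM in the 3 libraries and means from 0.214 to 3.40 FPKM. X loci are low in general, and the median of their mean FPKM was 0.406 over the 50 free-standing X loci near an end and 0.486 over all free-standing X loci. They are 890 to 3416 bp long. Among Z loci near an end, the 14 with an X neighbour had a median mean of 0.394 FPKM and the 12 without had 31.3 FPKM. Among interior Z loci, the 21 with an X neighbour had 31.8 FPKM and the 248 without had 42.1 FPKM. When every Z locus with an X neighbour was left out, the difference between Z loci near an end and interior ones was −0.51 in place of −4.27. The split by X neighbours was made after the values were seen. Whether these loci share sequence with each other or with other loci, and how fragments that map to several places were assigned, was not tested, and the FPKM of such loci are uncertain.

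The low loci near ends can be followed in each library. CMR002Z, 1264 bp on chromosome 18 from 8915 to 10178, had 0.323, 0.846 and 0.985 FPKM from 9, 5 and 6 fragments. CMF004Z, 1218 bp on chromosome 6 from 7988 to 9205, had 1.16, 0.689 and 0.668 FPKM from 32, 4 and 4 fragments. These 2 were the only ones of the 12 detected in every library. In library 1 all of the 12 but CMR504Z were detected, with 3 to 32 fragments at the 12 loci. In libraries 2 and 3 the 12 rested on 0 to 5 and 0 to 6 fragments. CMC004Z, 1702 bp on chromosome 3 from 10701 to 12402, stands just above the limit with 1.34, 0.529 and 0.905 FPKM. CMR002Z, CMF004Z and CMC004Z, with CMQ126Z and CMQ115Z in the interior of chromosome 17, are the 5 lowest Z loci detected in every library. CMQ126Z, 1506 bp from 295617 to 297122, had 0.755, 0.695 and 1.11 FPKM, and its neighbour CMQ125C had 42.3, 46.3 and 44.0 FPKM. CMQ115Z, 1862 bp from 270850 to 272711, had 0.955, 1.01 and 0.882 FPKM at 227 bp from CMQ114C, which had 680, 798 and 818 FPKM.

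Low Z loci near ends stood beside Z loci with higher values. CMR505Z, 1338 bp on chromosome 18 from 1245420 to 1246757 and 2994 bp from the end, had 50.1, 60.3 and 60.9 FPKM, while CMR504Z, 328 bp further in, had 0.107, 0.337 and 0.490 FPKM from 3, 2 and 3 fragments. CMF190Z, 1268 bp on chromosome 6 from 533542 to 534809, is the outermost locus of its chromosome arm and had 6.16, 3.70 and 5.24 FPKM, while CMF189Z, 990 bp from 531950 to 532939, had 0.526, 0.242 and 0.471 FPKM. These 3 outer loci, CMF190Z, CMF189Z and CMR505Z, are the Z loci nearest to an end. On chromosome 11 CMK002Z had 47.1, 33.7 and 35.6 FPKM and CMK003Z, 577 bp further in, had 0.788, 0.674 and 0.489 FPKM. On chromosome 8 CMH002Z had 13.9, 7.99 and 9.50 FPKM and CMH003Z had 0.262, 0.177 and 0.171 FPKM. In each of these 4 pairs 1 locus was under 1 FPKM and the other above 3 FPKM in every library, with no overlap. Pairs of neighbouring Z loci number 12 in all. The 8 interior pairs differed by 1.06 to 9.33 times.

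The 18 interior Z loci under 1 FPKM were less alike. Of these, 8 were under 600 bp, 6 had an X neighbour, 10 had a C locus on both sides and 2 were detected in every library. The numbers in the identifiers split the Z loci in another way. Of the 287 with a C neighbour, 229 carry a number 1 away from that of the neighbour, and 58 carry one that is 16 to 475 away, such as CMN343Z beside CMN129C. Loci out of sequence had medians of 54.1, 62.7 and 58.0 FPKM, against 37.9, 34.8 and 35.6 FPKM for those in sequence. The difference of log2(FPKM + 1) was 0.50, 0.83 and 0.68 in the 3 libraries (mean 0.61, SD 0.154, n = 2, exact two-sided sign-flip permutation p = 0.5, the smallest possible). Loci out of sequence were also shorter, with a median of 782.5 bp against 1299 bp, and none lay near a chromosome end. At 600 to 1000 bp, where both kinds are well represented, the medians were 56.2, 64.4 and 65.6 FPKM for 25 loci out of sequence and 43.2, 36.8 and 35.4 FPKM for 46 in sequence. Weighted to the length classes of the loci out of sequence, the difference was 0.40 in place of 0.61.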

How the data were processed

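Polyadenylated RNA of strain 10D was sequenced as 3 paired-end TruSeq libraries. The authors ran FastQC and the programs of the Tuxedo protocol on a Galaxy server and deposited, for each library, FPKM values with lower and upper confidence limits that Cufflinks wrote for each locus of the *C. merolae* Genome Project v3 annotation. Program versions and the handling of fragments that map to several loci are not given in the sources used here. Replicates were not pooled, and the columns for length and coverage were empty. All 6823 loci had the status OK in each file. Coordinates are in the v3 annotation and are counted from 1.

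The SD of an FPKM was taken as the distance to its upper limit divided by 2, and the implied fragments as the square of FPKM over SD. At Z loci with fewer than 50 fragments, 63.6%, 77.3% and 78.1% of these numbers in libraries 1, 2 and 3 were within 0.05 of a whole number. Numbers within 0.05 of a limit were read as that limit. No count test was run, since the numbers are inferred. A plot in the study's supplement shows similar fragment numbers for the 3 libraries, so which of them is the deepest is unresolved. A locus was detected at more than 3 fragments.

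Class medians of log2(FPKM + 1) were compared within each library, with exact two-sided sign-flip permutation tests over samples and no test over loci. Named loci were the 10 highest and 5 lowest means among detected Z loci, the 3 longest, shortest and nearest to an end, the 3 highest and lowest ratios of library 1 to libraries 2 and 3, and the 3 highest values among loci listed at 0 elsewhere, with the nearest locus beside them. Others were named after their values were seen. The members, classes and lists were chosen with earlier results of these data known, and the contrasts by chromosome end, by X neighbour and by identifier number were added after the data were seen. Alternatives were another pseudocount, filters on level, length, fragments and distance, nuclear chromosomes only, means over loci, weighting by length, a common scale for the libraries, and each library left out in turn. RefSeq assembly ASM9120v1 gave gene types only and no coordinates. The calculations were tested on simulated data. Python 3.11.15, numpy 2.4.6, pandas 2.3.3, scipy 1.17.1, statsmodels 0.14.6 and matplotlib 3.10.9 were used.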

Additional observations from a re-analysis of the deposited data

How the results depend on the processing

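The Z median minus the C median stayed negative under each of the 14 alternatives, from −1.11 with means over loci to −0.51 at loci with more than 3 fragments in every library, and from −0.70 to −0.65 with a library left out. Z loci near an end stayed below interior ones under 10 alternatives chosen after the data were seen, at −1.94 within 50 kb, −2.54 with means over loci, −0.51 without X neighbours and −4.98 with a pseudocount of 0.1. Without a library it was −4.37 to −4.27. Loci out of sequence stayed above the others, by 0.40 to 0.79 (0.59 to 0.72 without a library). The share of Z loci detected in every library was 89.2%, but 95.3% with any FPKM above 0, 82.4% with more than 10 fragments and 89.2% to 90.2% without a library. The mean share of fragments was 3.00%, but 3.18% of Z and C loci only, 2.63% without the 5 Z loci with the most fragments, and 2.96% to 3.00% without a library. The 18 Z loci past 1.5 times became 31 with no fragment minimum and 2 at more than 2 times. Of the 29 named loci, 5 had means that moved by more than 1.5 times when 1 library was left out. Without library 1 the mean was 1045 FPKM in place of 543 at CMT319Z, 250 in place of 149 at CMR369Z and 397 in place of 198 at CMB090Z. At CMD089Z it was 0 to 630 FPKM, against 315, and at CMI256Z 0 to 3.68, against 1.84. The classes of loci were compared within each library, so that no replicate block was left to add. At a few fragments per locus, levels under 1 FPKM cannot be ranked.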

Other observations

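CMN098Z on chromosome 14 from 251420 to 251724 and CMH099Z on chromosome 8 from 239807 to 240111 have the same length of 305 bp and the same distance of 166 bp to their nearest locus, and both are next to a locus ending in X. CMN098Z was listed at 0, 2.19 and 0 FPKM and CMH099Z at 0.355, 0 and 0 FPKM in libraries 1, 2 and 3, each from 1 fragment. The pair was picked after its values were seen.

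Some of the interior Z loci under 1 FPKM shared a chromosome. On chromosome 17 CMQ115Z, CMQ126Z and CMQ157Z start at 270850, 295617 and 382228. CMQ157Z, 1768 bp long, had 0.257, 0.117 and 0.464 FPKM. On chromosome 6 CMF085Z, 1738 bp from 228911 to 230648, had 0.429, 0.246 and 0.364 FPKM, and CMF096Z, 1602 bp from 262231 to 263832, had 0.834, 0.274 and 0.268 FPKM. Each of these 5 loci lies between C loci on both sides. Also on chromosome 6, CMF197Z starts at 366800. On chromosome 14 CMN052Z and CMN098Z start at 123998 and 251420. On chromosome 13 CMM033Z, CMM054Z, CMM248Z and CMM303Z start at 71135, 113752, 624697 and 766114. CMM033Z had 0.447, 0.380 and 0.558 FPKM and CMM054Z, which is 330 bp long, had 0.537, 0 and 1.59 FPKM. The loci of this paragraph were picked after their values were seen. Whether low loci share chromosomes more often than other Z loci do was not tested.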
